A study of Mus musculus with 6 samples.

Results

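The genes described here are 10 genes known for their expression in fat cells, read in the RNA of whole mouse pancreas. They were Adipoq, Car3, Cidec, Plin1, Plin4, Retn, Lep, Fabp4, Lgals12 and Pparg, taken by symbol, and each had 1 entry among the 23337 gene symbols counted. The mutant animals carried Ptf1a cre/+ and the transgene CAG-loxP-STOP-loxP-Prox1-LacZ, which yields Prox1 and LacZ once Cre recombinase has cut out the stop cassette, and the control animals carried Ptf1a cre/+ alone. All animals were of the strain NMRI and were taken at postnatal day 7, with 3 libraries per group. Cre is driven from the Ptf1a locus, so by design recombination is directed to cells with a history of Ptf1a, among them acinar cells and their progenitors. Fat cells are not its intended targets, and where recombination took place was not measured here. The design text speaks of pools for the controls and of single pancreata for the mutants, while the extraction protocol speaks of individual organs, so pooling and genotype cannot be told apart.

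Fat cells store triglyceride in a lipid droplet coated by perilipins, and release hormones, among them adiponectin, leptin and resistin. The nuclear receptor Pparg, with C/EBP factors, drives the genes of the mature fat cell. The pancreas lies in mesenteric fat, and a dissected organ can bring fat cells and lymph nodes with it, while its own capillaries and macrophages also use some of the same genes, such as Fabp4 and Pparg.

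For orientation, the 150 bases before the annotated start of 5 members that were near 0 in the same mutants, and of Pparg, which was not, are given from the RefSeq promoter table on GRCm38.p6, the assembly that mm10 denotes. Capitals mark matches on either strand to CCAAT (the CCAAT box), TTGCNNAA (a C/EBP site), AGGTCA (a nuclear receptor half-site) and TATAA, and the last of these can overlap itself on the opposite strand. The table held entries for 7 of the 10 genes, with 2 starts for Cidec and 3 for Pparg, of which the first and the third are shown. The window of Lep, which was also at 0 in mutants 1 and 3, is not shown.
Adipoq, chr16:23146386-23146535, plus strand: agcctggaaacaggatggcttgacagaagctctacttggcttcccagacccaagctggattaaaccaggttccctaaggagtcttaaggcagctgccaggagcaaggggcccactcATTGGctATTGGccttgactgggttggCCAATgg
Plin1, chr7:79732777-79732926, minus strand: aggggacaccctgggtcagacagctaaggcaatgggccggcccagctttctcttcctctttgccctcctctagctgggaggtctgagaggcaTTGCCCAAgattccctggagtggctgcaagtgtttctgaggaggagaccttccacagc
Plin4, chr17:56109783-56109932, minus strand: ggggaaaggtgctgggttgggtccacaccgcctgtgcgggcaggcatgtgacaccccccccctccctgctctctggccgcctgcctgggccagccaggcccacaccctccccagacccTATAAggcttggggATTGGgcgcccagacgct
Cidec, chr6:113435761-113435910, minus strand: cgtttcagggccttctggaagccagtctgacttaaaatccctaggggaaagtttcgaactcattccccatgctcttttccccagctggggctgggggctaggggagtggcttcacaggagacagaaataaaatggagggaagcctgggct
Retn, chr8:3655620-3655769, plus strand: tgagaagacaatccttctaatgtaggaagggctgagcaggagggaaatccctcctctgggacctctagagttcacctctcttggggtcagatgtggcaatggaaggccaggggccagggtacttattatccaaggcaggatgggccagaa
Pparg, chr6:115421916-115422065, plus strand: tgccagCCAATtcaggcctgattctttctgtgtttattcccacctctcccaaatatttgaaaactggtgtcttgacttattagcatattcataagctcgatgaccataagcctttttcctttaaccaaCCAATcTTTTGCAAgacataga
Adipoq held 3 CCAAT matches, at -34, -27 and -7 from the start. Plin1 held the C/EBP match TTGCCCAA at -58, and Plin4 held TATAA at -32 and a CCAAT match at -18. The RefSeq starts of Plin1 and Plin4 lie inside the GENCODE gene spans given below. The Plin1 match and the Plin4 CCAAT match are inside those spans too, and the third Pparg window lies wholly inside that of Pparg. The third Pparg start held 2 CCAAT matches and the C/EBP match TTTTGCAA at -16 in the bases shown, while the windows of Cidec and Retn held none of the 4 sets of letters. Of the windows not shown, that of Lep held the C/EBP match TTGCGCAA at -55, TTATA at -32 and TATAA at -31. The first Pparg start held AGGTCA at -28. The second Pparg start held ATTGG at -83, TTATA at -28, TATAA at -25 and AGGTCA at -9. Over the 250 bases before each of 32851 annotated starts, 33.8% held CCAAT, 9.56% the C/EBP letters, 14.0% the half-site and 22.8% TATAA. The windows shown are shorter, at 150 bases. Over 250 bases, Plin1 also held TTGCCTAA at -187, the second Cidec start TTGCTCAA at -198 and the third Pparg start TTGCCAAA at -215. The matches are letters in a window and no measure of binding.

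Total counts lay between 7729161 and 9957737 in mutants and between 7304727 and 10773223 in controls, and 1 CPM (a level relative to TMM-scaled library size) stood for between 6.65 and 10.5 counts. The Prox1 gene, which checks the labels, was at 25.5 to 31.3 CPM in mutants and 7.84 to 10.8 CPM in controls. Control 1 had 7110 counts of Xist, a gene active in females, and 0 counts of 4 Y-linked genes, against 1 to 4 and 1132 to 1463 in the other 5 libraries. Mutant 2 stood apart in markers of other tissues, with 79.9 CPM summed over 11 lymphocyte genes against 4.19 CPM in each of mutants 1 and 3, and with 99.0 CPM over 13 skeletal muscle genes against 14.0 and 11.0 CPM. Controls had 4.66, 19.2 and 24.4 CPM of the lymphocyte genes and 8.87 to 13.1 CPM of the muscle genes.

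Of the 10 genes, Lgals12 and Fabp4 fell in the mutants by the test over all genes, none rose, 6 did not pass, and Retn and Lep were too low to be tested. Adipoq, Retn and Lep, the hormone genes, were at 0 in mutants 1 and 3 and were counted in mutant 2. The median log2 fold change of the 8 tested was -2.45, against 0.00 over all genes tested. Among 13017 genes tested, 268 or 2.06% were called in either direction, and 197 or 1.51% were called lower and 71 or 0.545% higher in mutants (edgeR quasi-likelihood test, Benjamini-Hochberg adjusted p under 0.05). An unadjusted p under 0.05 was reached by 1662 genes, or 12.8%. In 5 of the 8 genes tested, and in Retn and Lep, every mutant library lay below every control library, as it did in 9.86% of all genes tested. Adipoq and Plin4 reached the minimum of the low-count filter in 3 control libraries and 1 mutant library each, so they were tested because of their control levels. Plin1 and Cidec reached it in 2 control libraries and 1 mutant library, and were tested through both groups. Counts over the tested members are thus a description. Fewer fat cells and less of these RNAs per cell cannot be told apart in RNA from a whole organ.

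Adipoq encodes adiponectin, a hormone made almost solely by fat cells (chr16:23146536-23158028, plus strand). Mutants 1, 2 and 3 had 0, 21 and 0 counts of it, or 0, 2.44 and 0 CPM, and controls 1, 2 and 3 had 20, 91 and 152 counts, or 3.01, 10.1 and 14.6 CPM. Mutant 2 thus lay just under control 1, and the groups did not overlap. A count of 0 allows up to 0.286 CPM in mutant 1 and 0.299 CPM in mutant 3, taken as 3 counts. The log2 fold change was -3.65 ± 0.91 (SE, n = 3 libraries per group), short of the threshold (edgeR adjusted p = 0.0855). It passed when mutant 2 was left out (edgeR adjusted p = 0.0067), where both remaining mutants are at 0. With any other single library left out it did not pass (edgeR adjusted p from 0.0679 to 0.301).

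**Figure D1:**
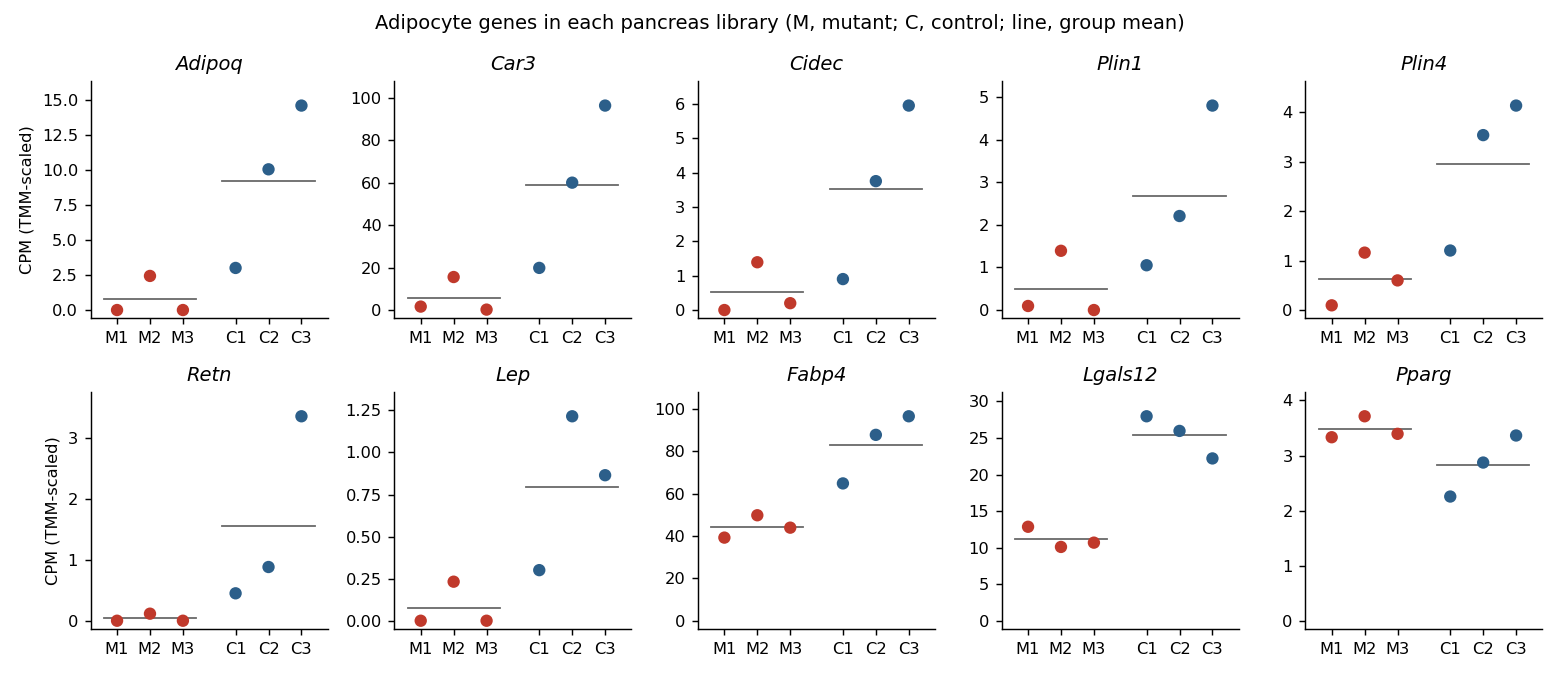
Level of each of the 10 genes in every library, in CPM after TMM scaling on linear axes that include 0, with mutants in red, controls in blue and a grey line at the group mean. In the first 7 genes mutants 1 and 3 are under 2 CPM and mutant 2 is the highest mutant, whereas Fabp4 and Lgals12 are present in every mutant and Pparg is at 3.33 to 3.71 CPM in mutants and 2.26 to 3.36 CPM in controls.

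Car3 encodes carbonic anhydrase III, one of the most abundant cytosolic proteins of fat cells and also a protein of slow skeletal muscle and liver (chr3:14863512-14872523, plus strand). It was at 1.62, 15.5 and 0.200 CPM in mutants 1 to 3 and at 19.8, 60.0 and 96.3 CPM in controls 1 to 3. Its log2 fold change was -3.44 ± 0.84 (SE) and did not pass (edgeR adjusted p = 0.0777), although no mutant reached the lowest control. Without mutant 2 it passed (edgeR adjusted p = 0.0031), and without any other single library it did not (edgeR adjusted p from 0.0599 to 0.281).

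In the lipid droplet genes, too, mutant 2 was the highest mutant and control 3 the highest control. Cidec, which encodes a protein that fuses lipid droplets into a single large one (chr6:113424634-113435760, minus strand), had 0, 12 and 2 counts in mutants and 6, 34 and 62 counts in controls. Plin1, the main perilipin of the fat cell droplet and a gatekeeper of lipolysis (chr7:79720218-79732903, minus strand), had 1, 12 and 0 counts in mutants and 7, 20 and 50 counts in controls. Plin4, a perilipin of small nascent droplets that skeletal muscle also makes (chr17:56100591-56109803, minus strand), had 1, 10 and 6 counts in mutants and 8, 32 and 43 counts in controls. The groups overlapped in Cidec and Plin1, where mutant 2 was above control 1, and did not overlap in Plin4 when scaled, at 0.0952, 1.16 and 0.599 CPM in mutants and 1.20, 3.54 and 4.13 CPM in controls. The log2 fold changes of Cidec, Plin1 and Plin4 were -2.86 ± 0.87, -2.57 ± 0.89 and -2.33 ± 0.63 (SE), and none of the 3 passed (edgeR adjusted p = 0.171, 0.235 and 0.112). Without mutant 2 they passed, with edgeR adjusted p of 0.0291 for Cidec, 0.0213 for Plin1 and 0.0486 for Plin4. None passed with any other single library left out. There the edgeR adjusted p was 0.122 to 0.440 for Cidec, 0.230 to 0.555 for Plin1 and 0.0883 to 0.356 for Plin4. With all 6 libraries DESeq2 called Plin4 (adjusted p = 0.0217) but not Cidec (0.658) or Plin1 (0.820), nor Car3 (0.379) or Adipoq (0.820).

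The remaining hormone genes had fewer counts. Retn, which encodes resistin, a peptide hormone of rodent fat cells (chr8:3655770-3660110, plus strand), had 0, 1 and 0 counts in mutants and 3, 8 and 35 counts in controls. The ratio of summed counts of Retn, mutant over control and scaled to library size, was 0.0195 with a 95% exact binomial interval of 0.000483 to 0.114, which covers counting error only. Lep, which encodes leptin, the satiety hormone of fat cells (chr6:29060220-29073877, plus strand), had 0, 2 and 0 counts in mutants and 2, 11 and 9 counts in controls, a ratio of 0.0814 with an interval of 0.00928 to 0.331. Both had their only mutant counts in mutant 2.

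The libraries with counts of Adipoq allow each gene to be read against it. Car3 had 6.38 counts per Adipoq count in mutant 2, and 6.60, 5.97 and 6.59 in controls 1, 2 and 3. The ratio thus stayed within these bounds while the level of Adipoq itself differed 4.86-fold between controls 3 and 1. Control 1 is also the library with Xist, so that range and sex cannot be told apart. Controls 2 and 3 were at 10.1 and 14.6 CPM of Adipoq. The counting interval of the Car3 ratio in mutant 2, the library with high skeletal muscle genes, ran from 4.01 to 10.6, and the part of muscle in its Car3 was not tested. Cidec had 0.571 counts per Adipoq count in mutant 2 and 0.300, 0.374 and 0.408 in controls 1 to 3, and the 95% exact binomial intervals of all 4 overlap, that of mutant 2 running from 0.256 to 1.22. Plin1 had 0.571 in mutant 2 and 0.350, 0.220 and 0.329 in controls, and Plin4 had 0.476 in mutant 2 and 0.400, 0.352 and 0.283 in controls.

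Fabp4, Lgals12 and Pparg did not keep a fixed ratio. Fabp4 had 20.4 counts per Adipoq count in mutant 2 (95% exact binomial interval 13.2 to 33.3) and 21.6, 8.73 and 6.61 in controls 1 to 3. Lgals12 had 4.14 per Adipoq count in mutant 2 (2.55 to 7.03) and 9.30, 2.58 and 1.52 in controls, with intervals of 5.85 to 15.6 in control 1 and 1.23 to 1.88 in control 3 that do not meet. Pparg had 1.52 in mutant 2 and 0.750, 0.286 and 0.230 in controls. For all 3 genes the ratio was higher in mutant 2 and control 1, the libraries with least Adipoq of these 4, than in controls 2 and 3. The ratios of Plin1 and Plin4 were higher in those libraries too, though their intervals overlap. Adipoq is the divisor, so any gene that does not move with it has higher ratios where Adipoq is low. The order of the ratios thus adds nothing to the levels. Between controls 3 and 1 the level of Fabp4 differed 1.49-fold, that of Pparg 1.49-fold and that of Lgals12 0.794-fold.

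**Figure D2:**
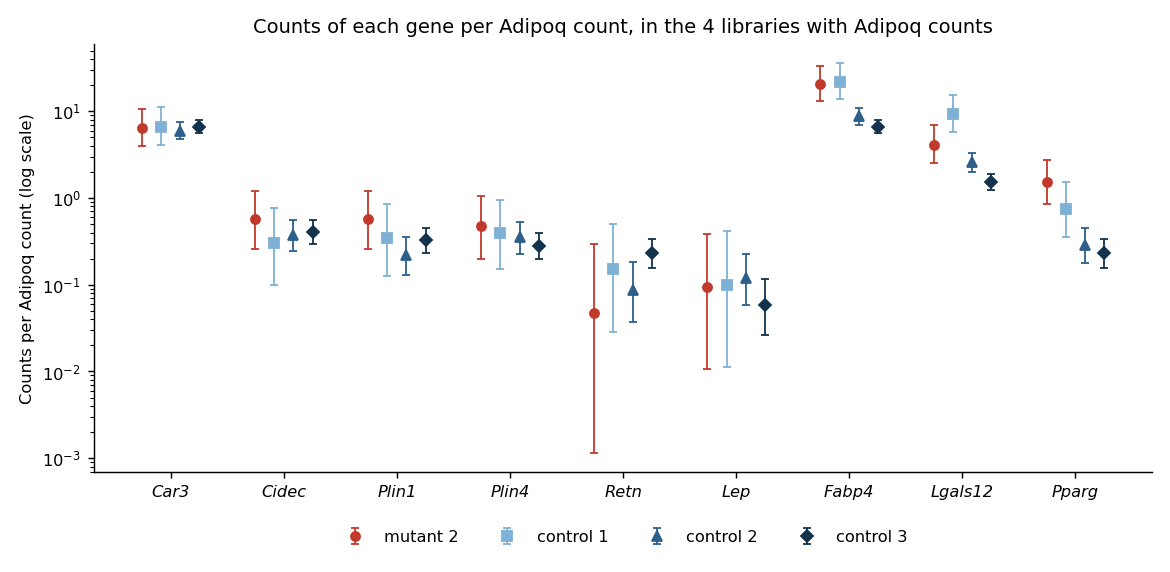
Counts of each gene per count of Adipoq on a log axis, in mutant 2 and controls 1 to 3, the 4 libraries with counts of Adipoq; bars are 95% exact binomial intervals and cover counting error only. Car3 is at 5.97 to 6.60 in all 4, and Fabp4, Lgals12 and Pparg are lowest in control 3, which has the most Adipoq. Plin4 and Lep are lowest there too, with bars that overlap those of the other libraries. Adipoq is the divisor, so a gene that does not move with it takes this order by arithmetic.

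Within the 3 controls alone, with log2 CPM at a prior count of 2, the SD of the log2 ratio to Adipoq was 0.076 for Car3. It was 0.13 for Cidec, 0.29 for Plin4 and 0.38 for Plin1. The prior count weighs most on genes with few counts, such as Cidec with 6 in control 1, so these SDs depend on it as well. It was 0.61 for Lep and 0.62 for Retn, which had few counts, 0.85 for Fabp4, 0.89 for Pparg and 1.30 for Lgals12. Over all 6 libraries, at the same prior count, the SD was 0.75 for Car3, 0.96 for Cidec and 0.99 for Plin1. For Plin4, Retn and Lep it was between 1.42 and 1.59. It was 2.16 for Fabp4, 2.24 for Lgals12 and 2.72 for Pparg. These 6 points share their libraries and scaling, and the group difference enters the SD. Mutants 1 and 3 had 0 counts of Adipoq, so their ratios, and with them the SD over 6 libraries, depend on the prior count.

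**Figure D3:**
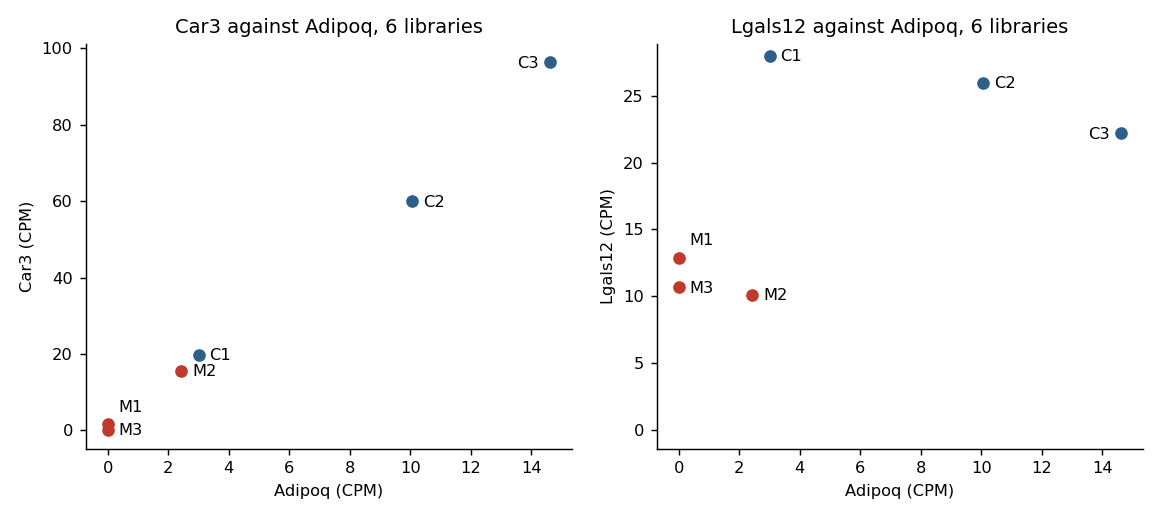
Level of Car3 (left) and of Lgals12 (right) against that of Adipoq in the 6 libraries, in CPM, with mutants M1 to M3 in red and controls C1 to C3 in blue. Car3 climbs with Adipoq through both groups, while Lgals12 is at 10.1 to 12.9 CPM in mutants and 22.2 to 28.0 CPM in controls whatever the level of Adipoq, and is lowest among controls where Adipoq is highest.

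Lgals12, which encodes galectin-12, a lectin found on fat cell lipid droplets (chr19:7596660-7607193, minus strand), had 135, 87 and 107 counts in mutants and 186, 235 and 231 counts in controls. That is 12.9, 10.1 and 10.7 CPM in mutants 1 to 3 and 28.0, 26.0 and 22.2 CPM in controls 1 to 3. Every mutant lay below every control, and the spread within each group was small. Its mean was 11.2 ± 1.45 CPM in mutants and 25.4 ± 2.93 CPM in controls (SD, n = 3 each), a log2 fold change of -1.17 ± 0.14 (SE) that passed the test (edgeR adjusted p = 0.0020). Mutants 1 and 3, with 0 counts of Adipoq, kept 12.9 and 10.7 CPM of Lgals12, and mutant 2, with Adipoq near the level of control 1, had the least Lgals12 of the 6. It stayed called in all 15 alternatives, with an adjusted p of at most 0.0177 by edgeR, limma-voom or DESeq2.

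Fabp4, which encodes the fatty acid carrier of fat cells, capillary endothelium and macrophages (chr3:10204088-10208576, minus strand), was at 39.2, 49.8 and 43.9 CPM in mutants and 64.8, 87.7 and 96.5 CPM in controls. Every mutant was below every control, and among controls the order was that of Adipoq. Fabp4 averaged 44.3 ± 5.29 CPM in mutants and 83.0 ± 16.4 CPM in controls (SD, n = 3 each), with a log2 fold change of -0.91 ± 0.15 (SE, edgeR adjusted p = 0.0125). Fabp4 missed the threshold when libraries were scaled by their totals (edgeR adjusted p = 0.0545) and without mutant 1, mutant 3, control 2 or control 3 (0.0757, 0.0639, 0.0801 and 0.0559). Without control 1, the library with Xist, the log2 fold change was -1.06 for Fabp4 and -1.10 for Lgals12 (edgeR adjusted p = 0.0034 and 0.0094).

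Pparg, the receptor that drives fat cell differentiation (chr6:115360951-115490399, plus strand), had 35, 32 and 34 counts in mutants and 15, 26 and 35 counts in controls. It was at 3.33, 3.71 and 3.39 CPM in mutants and 2.26, 2.87 and 3.36 CPM in controls, so that the groups overlapped. Its log2 fold change was 0.28 ± 0.25 (SE) and did not pass (edgeR adjusted p = 0.728), with values between 0.10 and 0.44 over the alternatives. The counts do not separate the transcripts from its different starts.

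**Figure D4:**
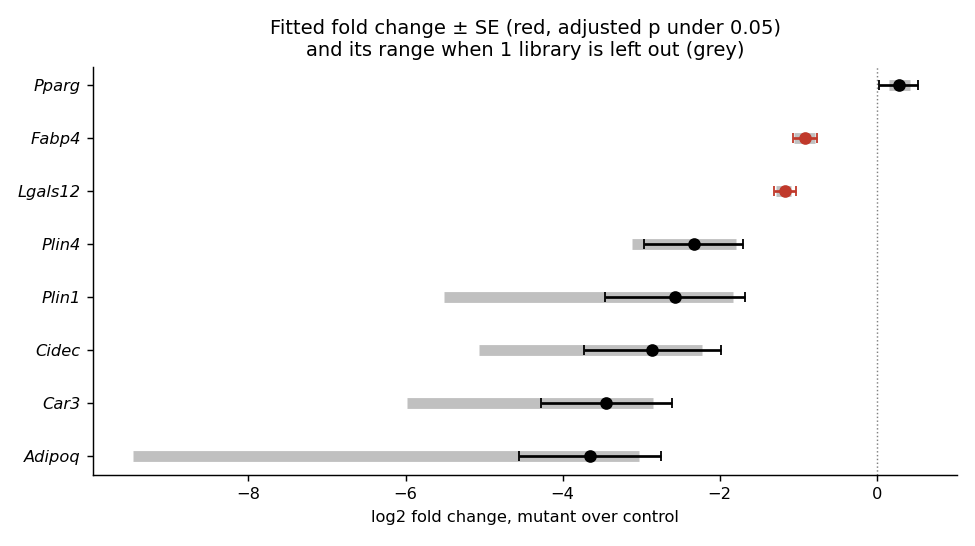
Fitted log2 fold change, mutant over control, with its SE for the 8 genes tested by edgeR; red points passed an adjusted p of 0.05, and grey bands span the values when 1 library was left out. The bands of Adipoq, Cidec, Plin1 and Car3 reach far to the left through the fit without mutant 2, where fitted values of genes at or near 0 depend on the prior count, while those of Lgals12 and Fabp4 are narrow.

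Per kilobase of annotated exon, the order of levels also differed. Exons of all annotated transcripts were merged for these lengths. Those of Fabp4 came to 4489 bases, its whole gene span, so its level per kilobase can be too low. In mutants Fabp4 led with 9.87 ± 1.18 CPM per kilobase (SD, n = 3), followed by Lgals12 at 4.04 ± 0.52, Car3 at 2.02 ± 2.96 and Pparg at 1.18 ± 0.069, and the other 6 were under 1. The place of Car3 rests on mutant 2, since Car3 was at 0.565, 5.43 and 0.0697 CPM per kilobase in mutants 1 to 3, while Pparg was between 1 and 1.26 in all 3. In controls Car3 had 20.5 ± 13.3 and Fabp4 18.5 ± 3.64, which at these lengths do not differ beyond their spread. Lgals12 at 9.15 ± 1.06 and Adipoq at 6.68 ± 4.23, which also overlap, followed. Cidec had 1.91 ± 1.37 there, and Retn, Pparg, Plin1, Plin4 and Lep lay between 0.237 and 0.992. Of the summed CPM of the 10 genes, Fabp4 gave 58.0% to 74.5% in mutants and 38.3% to 53.2% in controls, and Car3 gave 0.338% to 18.1% in mutants and 16.3% to 38.2% in controls.

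Summed over all 10 genes, the level was 57.2, 85.9 and 59.0 CPM in mutants and 122, 198 and 252 CPM in controls, a ratio of means of 0.353. Over the 7 genes other than Fabp4, Lgals12 and Pparg, a set chosen after the values were seen, it was 1.81, 22.3 and 0.998 CPM in mutants and 26.8, 81.6 and 130 CPM in controls. The 7 genes had 19, 192 and 10 counts in the mutants and 178, 739 and 1353 counts in the controls. The lymphocyte genes, the highest of which in mutant 2 was Cd4 at 14.6 CPM, had the same order among controls and were highest in mutant 2. Their part in the result was not tested. Other lists shared this order of controls. The mesothelium genes summed to 112, 165 and 211 CPM and the precursor genes to 523, 653 and 753 CPM in controls 1 to 3. In mutants these 2 lists were lowest in mutant 2, at 153, 128 and 133 CPM and at 710, 627 and 658 CPM.

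**Figure D5:**
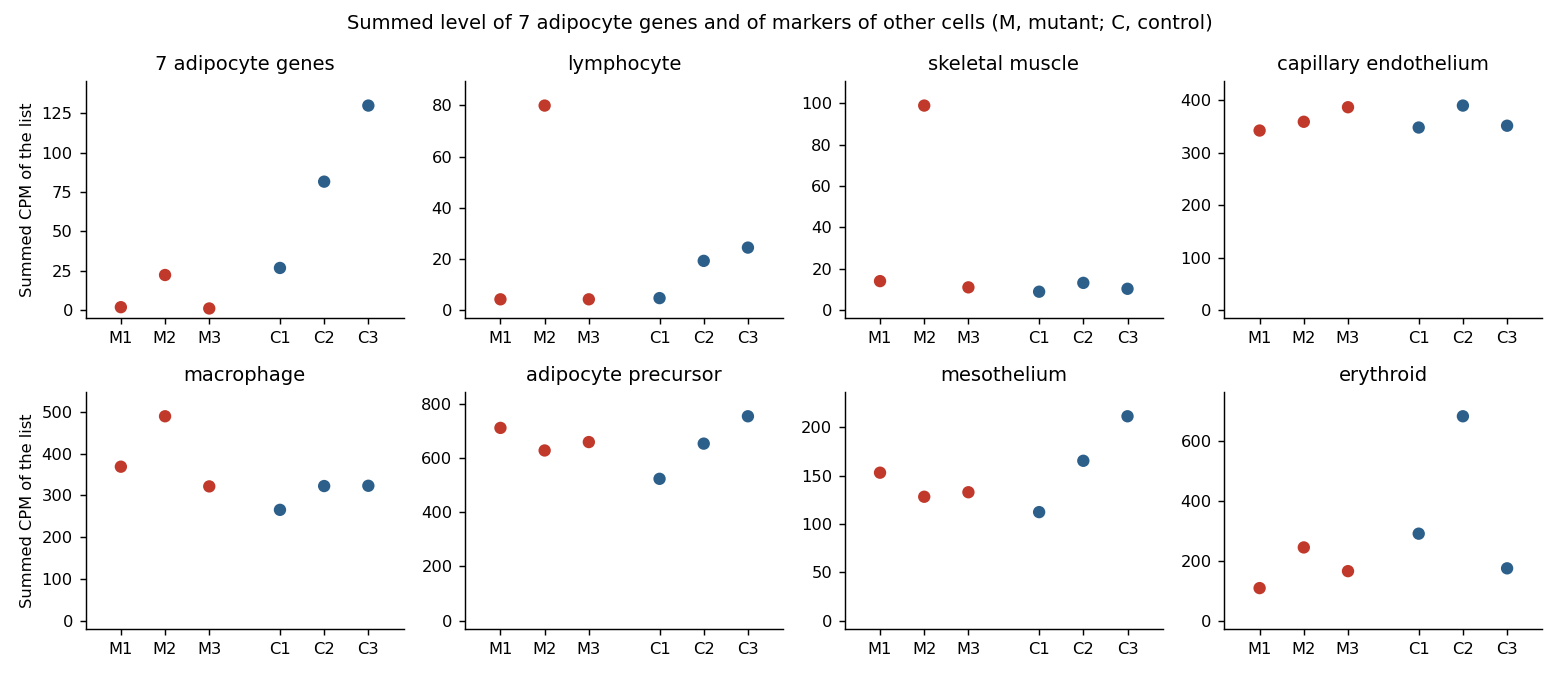
Summed CPM in each library of 7 adipocyte genes (Adipoq, Car3, Cidec, Plin1, Plin4, Retn and Lep) and of 7 marker lists of other cells, on linear axes that include 0, with mutants in red and controls in blue. Mutant 2 is the mutant with adipocyte genes, at 22.3 CPM, and also has the highest lymphocyte sum, 79.9 CPM, and muscle sum, 99.0 CPM, while the capillary endothelium sum is 342 to 387 CPM in mutants and 348 to 390 CPM in controls.

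Genes of fat metabolism that many cell types use were read as lists. Of 20 lipid droplet and lipolysis genes, 16 were tested and 0 were called by edgeR, where 3 had an unadjusted p under 0.05 (12.8% of all genes did), and the median log2 fold change was -0.08 against 0.00 over all genes tested. Cav1, the main caveola protein, averaged 155 ± 13.8 CPM in mutants and 175 ± 18.0 CPM in controls (SD, n = 3 each), and Ptrf, a caveola coat protein now named Cavin1, averaged 87.2 ± 5.89 and 99.9 ± 21.7 CPM. Lipe, the hormone-sensitive lipase, had 47, 50 and 44 counts in mutants and 27, 60 and 55 counts in controls, and was named here after its values were seen.

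Among 25 genes of fat uptake and triglyceride synthesis, 23 were tested, 3 fell and 0 rose, against 1.51% of all genes that fell. Of the 23, 6 had an unadjusted p under 0.05 by edgeR, against 12.8% of all genes, and the median was -0.09. Scd1, a desaturase that makes monounsaturated fatty acids, was at 9.14, 13.3 and 5.49 CPM in mutants and 19.1, 35.2 and 42.0 CPM in controls, a log2 fold change of -1.81 ± 0.32 (SE, edgeR adjusted p = 0.0177). Every mutant lay below every control, and the order of libraries within each group put mutant 2 and control 3 at the top. Pcx, the pyruvate carboxylase that feeds fatty acid synthesis, averaged 11.1 ± 2.04 CPM in mutants and 20.9 ± 3.23 CPM in controls (-0.91 ± 0.17, edgeR adjusted p = 0.0206), and Slc27a1, a fatty acid transporter, averaged 19.6 ± 2.17 and 35.3 ± 8.09 CPM (-0.85 ± 0.17, edgeR adjusted p = 0.0300). Each of these 3 calls was lost when some single library was left out, namely Scd1 without mutant 1, mutant 3, control 2 or control 3, Pcx without mutant 1, control 2 or control 3, and Slc27a1 without mutant 1, 2 or 3 or control 2 or 3, with edgeR adjusted p up to 0.153. Scd1 also missed the threshold with a robust dispersion (0.140), and Slc27a1 with library totals alone (0.0695). Pck1, a gluconeogenic and glycerol-making enzyme that was named after its values were seen, had 1, 8 and 1 counts in mutants and 3, 23 and 26 counts in controls and did not pass (edgeR adjusted p = 0.208).

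Of 19 fat cell transcription factors other than Pparg, 18 were tested and 0 were called by edgeR, with a median of -0.08. Of the 18, 3 were at an unadjusted p under 0.05, against 12.8% of all genes. Srebf1, a regulator of lipid synthesis, averaged 32.1 ± 3.02 CPM in mutants and 36.5 ± 2.96 CPM in controls, and Klf15 averaged 24.9 ± 3.07 and 27.7 ± 1.84 CPM (SD, n = 3 each). Cebpa, a factor of mature fat cells named after its values were seen, had 76, 102 and 90 counts in mutants and 59, 59 and 90 counts in controls.

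Among 26 further secreted and surface genes of fat cells, 17 were tested, 2 rose and 0 fell, against 0.545% of all genes that rose. Of the 17, 3 had an unadjusted p under 0.05 by edgeR, against 12.8% of all genes. The median was 0.00. The genes that rose are also plasma protein genes of liver. Rbp4, the carrier of retinol in blood, averaged 46.8 ± 2.29 CPM in mutants and 23.5 ± 4.62 CPM in controls (log2 fold change 1.00 ± 0.13, edgeR adjusted p = 0.00381), and Agt, angiotensinogen, was at 25.4, 9.51 and 28.1 CPM in mutants and 3.46, 3.09 and 4.32 CPM in controls (2.53 ± 0.38, edgeR adjusted p = 0.00657). The Agt call was lost without control 2 (edgeR adjusted p = 0.0589) and with a robust dispersion (0.0676). Cfd, which encodes adipsin, a protease secreted by fat cells that did not pass the low-count filter and was named after its values were seen, had 0, 7 and 0 counts in mutants and 3, 84 and 97 counts in controls. In CPM that is 0.451, 9.28 and 9.32 in the controls, so that controls 2 and 3 were level in Cfd and not in Adipoq.

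Of 14 brown fat genes, 4 were tested, 1 rose and 0 fell, against 0.545% and 1.51% of all genes, with a median of 0.02. Of the 4, 1 had an unadjusted p under 0.05 by edgeR, against 12.8% of all genes. The gene that rose was Fgf21, a metabolic hormone that acinar cells and liver make as well, at 15.7, 15.0 and 11.1 CPM in mutants and 0.902, 0.663 and 0.577 CPM in controls (4.30 ± 0.26, edgeR adjusted p = 2.3e-05). Ucp1, the uncoupling protein that defines brown fat and was named after its values were seen, had 2, 2 and 1 counts in mutants and 0 counts in each control, and Elovl3 was at 0 in all 6 libraries.

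Receptors for these hormones and genes of fat cell precursors gave no call. Of 8 genes for adipokine receptors and binding proteins 0 were called, with 0 at an unadjusted p under 0.05 by edgeR, and their median was 0.08. Adipor1, a receptor for adiponectin, averaged 75.7 ± 3.52 CPM in mutants and 76.8 ± 5.86 CPM in controls, and Dcn, a matrix proteoglycan that has been described to bind resistin, averaged 634 ± 39.3 and 552 ± 83.8 CPM (SD, n = 3 each). Of 16 fat cell precursor genes 0 were called by edgeR, with a median of 0.03. Of the 16, 3 were at an unadjusted p under 0.05, against 12.8% of all genes. Cd34, a surface protein of precursors and endothelium, averaged 168 ± 9.15 CPM in mutants and 169 ± 13.3 CPM in controls, and Fndc1, a gene of stromal cells, averaged 97.3 ± 38.9 and 102 ± 60.0 CPM. Summed over the 16 genes, levels were 710, 627 and 658 CPM in mutants and 523, 653 and 753 CPM in controls.

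Cells that share genes with fat were read by their own markers. Of 12 capillary endothelium genes 0 were called by edgeR, 0 had an unadjusted p under 0.05, and the median was 0.00. Pecam1, an endothelial adhesion protein, averaged 80.9 ± 7.08 CPM in mutants and 75.6 ± 2.63 CPM in controls, and Aqp1, a water channel, averaged 64.1 ± 9.07 and 69.8 ± 10.1 CPM. Of 12 macrophage genes 2 rose and 1 fell, against 0.545% and 1.51% of all genes. Of the 12, 8 had an unadjusted p under 0.05, against 12.8% of all genes, 10 had a log2 fold change above 0, and the median was 0.54. They summed to 368, 489 and 321 CPM in mutants and 265, 322 and 323 CPM in controls. Lyz2, Mpeg1 and Ctss, named after their values were seen, were at 139, 39.6 and 31.6 CPM in mutant 2, above every other library. Mrc1, the mannose receptor, and C1qc, a complement chain, rose by 0.53 ± 0.11 and 0.58 ± 0.12 on the log2 scale (SE, edgeR adjusted p = 0.0419 for each), and C1qa, another complement chain, fell by 0.81 ± 0.16 (edgeR adjusted p = 0.0313). Each of the 3 calls was lost without some single library, among them mutants 1 and 3 and controls 1 and 2 in every case, the largest edgeR adjusted p being 0.187. C1qa also missed the threshold with library totals alone (edgeR adjusted p = 0.0797). Of 11 lymphocyte genes 7 were tested, of 13 skeletal muscle genes 4, of 11 liver genes 2, of 7 mesothelium genes 7, of 6 keratinocyte genes 2, of 5 erythroid genes 5 and of 12 acinar genes 11. In these lists 0 were called by edgeR, and in the same order 0, 1, 1, 1, 0, 4 and 4 had an unadjusted p under 0.05, against 12.8% of all genes. Their median log2 fold changes were 0.27, 1.02, 0.69, -0.24, -0.49, -1.75 and -0.22. The erythroid genes summed to 109, 245 and 166 CPM in mutants and 291, 683 and 175 CPM in controls, an order that differs from that of Adipoq in the controls, and their part in the result was not tested.

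Among 10031 tested genes outside the list with a mean of at least 5 CPM, the SD over 6 libraries of the log2 ratio to Adipoq was smallest for Nr1h4 (1.42), a bile acid receptor, Psmb10 (1.48), an immunoproteasome subunit, and Pga5 (1.48), a pepsinogen. Next came Gp2, Try4, Scd1, Pnliprp2, Itln1, Itgb2 and Aqp12, with SDs of 1.60 to 1.74. Car3, which also averaged over 5 CPM, had a smaller SD (0.75) than any of these. Cidec and Plin1 were under that level and have no place in the order, since a prior count of 2 narrows the spread of low genes. Nr1h4 was at 1.62, 1.74 and 0.499 CPM in mutants and 15.9, 16.6 and 12.2 CPM in controls (log2 fold change -3.53 ± 0.31, SE), so its controls did not have the order of Adipoq. The likeness uses the difference between groups as well as that within them, so the lower level of such genes in mutants is a description. This order was read at 1 prior count only, on which the ratios in mutants 1 and 3, with 0 counts of Adipoq, depend.

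Around Lgals12 the SDs were far smaller. The 5 closest genes were Slc1a3, a glutamate transporter (0.13), Col7a1, a collagen (0.14), Kirrel2, an adhesion protein (0.16), Derl3, a factor of degradation at the endoplasmic reticulum (0.17), and Bpgm, a bisphosphoglycerate mutase (0.17). Slc1a3 was at 9.62, 8.70 and 9.18 CPM in mutants and 22.0, 19.7 and 21.0 CPM in controls, with a log2 fold change of -1.18 ± 0.12 (SE). The choice by likeness to Lgals12, which itself fell, fixes their direction and about their size, so the values are a description. Their log2 fold changes were -1.30 to -1.08.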

How the data were processed

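Whole pancreas RNA from 3 mutant and 3 control samples was read as the authors' deposited counts, whole numbers of reads per gene symbol in 1 file per library. The submitters' processing notes name STAR, cutadapt 1.13, DESeq2, HTSeq 0.6.1p1 and mm10, with no role or order. The annotation, strand setting and treatment of multiply matching reads were not given in the sources used here. For genes near 1 CPM, counting limits precision. Groups and replicate numbers came from the sample titles. Nothing states that samples come from separate litters, so p-values measure the spread between these samples.

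Counts were tested with edgeR 4.0.16 in R 4.3.3 (quasi-likelihood, TMM, filterByExpr at its defaults, no covariate), mutant over control, with Benjamini-Hochberg adjustment over all genes tested. SE is the size of the log2 fold change over the root of F. The procedure was tested on simulated data. Alternatives were other scalings, filters, a robust dispersion, limma-voom (limma 3.58.1), DESeq2 1.42.0, a replicate block, and leaving out libraries. Likeness used log2 CPM with a prior count of 2. Gene coordinates and exon lengths came from GENCODE M21 on GRCm38; under 1% of the exon bases of Plin4, and none of the other members, overlap another gene. Of the list genes, 8 were matched by a RefSeq synonym and 4 were not found.

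The members and lists were chosen with earlier results of these data known. Named genes were the members, Prox1, up to 4 called genes per list or else the 2 most abundant, the 10 genes most like Adipoq and the 5 most like Lgals12. Others were chosen after their values were seen.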

Additional observations from a re-analysis of the deposited data

How the results depend on the processing

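The number of genes called was 268, and 125 to 301 when 1 library was left out, and it was 484 without control 1 and mutant 2 together, a setting chosen after seeing the data. The number of the 10 genes called was 2 and ran from 1 to 7 when 1 library was left out, with 7 without mutant 2. It was 1 with library totals alone, 5 with no filter on low counts (Adipoq, Lgals12, Fabp4, Retn and Car3) and 7 without control 1 and mutant 2. Library totals alone moved the median of all genes to 0.17 on the log2 scale, against 0.00. Replicate numbers are shared by the groups, but deviations of same-numbered libraries from their group means correlated at 0.080, 0.029 and -0.071, and mutants 2 and 3 correlated better with a control of another number. A replicate block gave 241 called genes and 5 of the 10 (Adipoq, Lgals12, Fabp4, Plin4 and Car3), and ended the calls of Mrc1 and C1qc (edgeR adjusted p = 0.101 and 0.080). The causes were not tested. Directions of all tested genes whose fold change is given held in the 15 alternatives. The ratio of summed CPM was 0.299 to 0.421 over its leave-one-out values, 0.397 with library totals and 0.214 without Fabp4. With a prior count of 0.5 the SD of the ratio to Adipoq moved to 2.15 for Plin4 and 1.46 for Cidec.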

Other observations

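Of the 13 skeletal muscle genes listed, all but Actn3 and Myh3 were highest in mutant 2. Among them, Ckm, Mylpf, Myh8 and Tnnt3 had 90, 92, 74 and 73 counts there. These 4 and Myh1, Actn3 and Myh3 were chosen after their values were seen. Acta1, the actin of skeletal muscle, was at 1.81, 24.0 and 0 CPM in mutants and at 0, 0 and 0.0961 CPM in controls. Myh1, a fast myosin, had 3, 114 and 2 counts in mutants and 0, 0 and 1 counts in controls. Actn3, an actinin of fast fibres, was not high in mutant 2, at 1.71, 1.39 and 1.80 CPM in mutants and 1.65, 2.10 and 1.54 CPM in controls, and Myh3, an embryonic myosin, had 0, 0 and 2 counts in mutants and 0 in each control. Eno3, the muscle enolase, had 5.33, 9.75 and 5.59 CPM in mutants and 5.56, 7.84 and 6.05 CPM in controls.

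Genes of T cells were also highest in mutant 2, and Cd3g was chosen after its values were seen. Cd3g, a chain of the T-cell receptor complex, had 0, 71 and 0 counts in mutants and 0, 5 and 19 counts in controls. Lck, a T-cell kinase, was at 1.43, 14.0 and 0.898 CPM in mutants and 1.20, 1.77 and 2.79 CPM in controls.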
